A study of Mus musculus with 2 samples.

Results

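The cells described here were bone marrow cells with transcripts of Kit, Cd34 and Cpa3 together and with few transcripts of the neutrophil granule gene Elane and of the basophil protease genes Mcpt8 and Prss34. A member had at least 1 UMI (unique molecular identifier, 1 counted transcript) of Kit, at least 2 of Cd34 and at least 2 of Cpa3. It also had fewer than 10 Elane UMIs per 10000 and fewer than 5 UMIs of Mcpt8 and Prss34 together per 10000. These 6 genes and the limits of cell calling chose the cells, so their levels are given only as a description. In all, 238 of 23283 called cells were members.

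Recipients in both groups were aged C57BL/6J mice, given a gut microbiota transplant from young donor mice (FMT_young) or from aged donor mice (FMT_aged). The series title names rejuvenation of stem cells and inflammatory signals as its subject. Each group was 1 10x Genomics library, so differences could be neither checked in replicates nor tested, and the number of animals behind a library is not stated in the labels. Each library was a sorted mixture, in parts of 1 to 1 to 4, of whole marrow, of cells without lineage markers (Lin-) and of Lin- cells with surface Kit, and this mixture sets the shares of all cell types.

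Cpa3 encodes carboxypeptidase A3, a protease stored in mast cell granules, and its transcript is already present in marrow progenitors. CD34 is a surface sialomucin of stem and progenitor cells, and Kit is the receptor for stem cell factor, on which early progenitors and mast cells depend. In mouse marrow, progenitors with the transcription factor GATA2 give rise to mast cells, basophils and eosinophils as well as to the erythroid and megakaryocytic lines, while progenitors with IRF8 lead to monocytes and dendritic cells.

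FMT_young held 76 members among 11932 called cells, or 0.637% (95% exact Clopper-Pearson interval 0.502 to 0.797%). FMT_aged held 162 among 11351, or 1.43% (1.22 to 1.66%). The log2 ratio of FMT_young over FMT_aged was -1.16 (-1.58 to -0.76). It was -0.99 (-1.40 to -0.59) among called cells with a Kit UMI, where the shares were 1.35% and 2.69%. Among cells with Kit and at least 2 Cd34 UMIs the shares were 3.16% and 5.10%, and the ratio was -0.69 (-1.10 to -0.29). Among the 720 and 1174 cells that met every limit but that on Cpa3, 10.6% and 13.8% were members, and the interval of that ratio, -0.39 (-0.80 to 0.02), included 0. The difference between the libraries thus became smaller with each narrower denominator. All intervals of shares, levels and ratios cover counting error only. Whether the sorted mixture differed between the libraries was not tested.

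With all other limits met, 43 FMT_young and 108 FMT_aged cells had 1 Cpa3 UMI and lay just outside, while 12 and 30 had 2 and lay just inside. At the Elane limit, 14 and 38 members had 5 to 10 UMIs per 10000, and 22 and 38 cells with 10 to 20 lay just outside. A further 13 and 21 cells were left out for Mcpt8 and Prss34 alone. The median Cpa3 count of the members was 6 UMIs (2 to 34) in FMT_young and 7 (2 to 101) in FMT_aged.

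The libraries held 214982156 and 207642851 UMIs, and called cells had medians of 12438.5 and 13000 UMIs. Members were of similar depth in both libraries, at median counts of 14226 and 15486.5 UMIs, from 3792.5 and 3978 detected genes. Summed, they held 1264644 UMIs in FMT_young and 2742951 in FMT_aged, and levels below are CPM, counts scaled to the same total in each sum. No barcode was shared between the members of the libraries. Among all called cells 34 barcodes occurred in both.

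The label of early myeloid progenitors was compared with Adgrg1, Muc13 and Myb, the markers of the label that the limits did not use. Adgrg1, an adhesion G protein-coupled receptor of stem and progenitor cells, was at 546 CPM in FMT_young members and 584 in FMT_aged members, against 28.6 and 41.9 in mature B cells. Muc13, a membrane mucin, was at 190 and 188 CPM against 15.1 and 17.4, and Myb, a transcription factor that immature blood cells need, at 604 and 581 against 158 and 171. All 3 markers were thus far above the level of cells that should lack or hardly use them, in both libraries. Cells that met every other limit but had 0 Cpa3 UMIs held them too, at 267, 89.0 and 322 CPM in FMT_young. In both libraries these levels were below those of the members. The comparison with mature B cells does not tell the members from other progenitors. After thinning every cell to 5000 UMIs, 88% and 93.1% of members had an Adgrg1 UMI, against 9.47% and 9.52% of mature B cells. The thinned shares rest on 75 and 160 members and on 95 and 189 mature B cells, with 1 and 2 shallower members and 155 and 196 shallower mature B cells left out. Unthinned, mature B cells had medians of 3914 and 4937 UMIs.

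The word myeloid rests on less direct values. Mpo, the myeloperoxidase gene of myeloid granules, was at 2886 CPM in FMT_young members and 3128 in FMT_aged members, but summed mature B cells held 2711 and 3049. Barcodes with under 100 UMIs, which stand for free RNA, held 5553 and 6132 CPM of Mpo. This is the make-up of free RNA, and the amount of free RNA within a cell was not measured. The summed level in members was near that in mature B cells, and how much of it is background is not known. In FMT_young, cells that met every other limit but had 0 Cpa3 UMIs held 1596 CPM. Single members held 0 to 155 Mpo UMIs in FMT_young and 0 to 216 in FMT_aged. A UMI of Mpo was found in 94.7% and 95% of thinned members and in 55.8% and 48.7% of thinned mature B cells (97.4% and 96.9% of members before thinning). The serine protease gene Prtn3, at 1898 and 1533 CPM, lay below its level in mature B cells, 2979 and 2994. Ctsg, which encodes cathepsin G, was at 1075 and 1132 CPM and in mature B cells at 1189 and 1529. No expression was read from these 2 genes.

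A few members carried transcripts of a mature lineage at high levels, and these few set some sums. In FMT_young, 5 members had at least 20 UMIs per 10000 of the neutrophil genes S100a8 and S100a9, and these cells held 97.5% of the members' UMIs of both genes. No FMT_aged member passed that limit. Immunoglobulin transcripts at 50 per 10000 or more were found in 2 and 5 members, and T cell transcripts at 5 or more in 0 and 9. Eosinophil transcripts at 10 or more were in 2 and 1, and a single cell held 628 of the 673 Prg2 UMIs in FMT_young and 866 of 884 in FMT_aged. Counted once, 9 of 76 and 15 of 162 members carried such transcripts, and 5 and 11 of them were among the 7 and 14 members with the highest doublet scores of their library. Doublets were kept in the sums, and results are also given without these cells where they differ.

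The members were first set beside Cd34 cells without Cpa3, which met every other limit and numbered 601 in FMT_young and 904 in FMT_aged (medians of 16381 and 15603 UMIs). The members held more transcript of mast cell and basophil genes and of Gata2, Itga2b and Apoe, and less of monocyte, dendritic and early lymphoid genes. Of 10172 genes with at least 100 UMIs, 86 (0.845%) were past 2-fold higher in members in both libraries and 200 (1.97%) past 2-fold lower. Cpa3 itself was chosen by the limits, and genes that vary with it are described here without a test. The median over all these genes was 0.03 in FMT_young and -0.004 in FMT_aged on the log2 scale.

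Gata2 was at 195 CPM (95% Poisson interval 172 to 221) in FMT_young members and 194 (178 to 211) in FMT_aged members. In Cd34 cells without Cpa3 it was at 41.1 and 40.4 CPM, which made log2 ratios of 2.25 and 2.26. The members of both libraries were alike in this factor and far above the other cells. Itga2b, the alpha IIb integrin of megakaryocytes and of early progenitors, was at 101 and 113 CPM against 9.89 and 16.2 (3.35 and 2.80). Apoe, which encodes the lipid carrier apolipoprotein E, was at 597 and 636 against 42.2 and 60.2 (3.82 and 3.40). Mature B cells also held Apoe, at 813 and 1037 CPM, but Gata2 at only 10.4 and 12.3.

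Among genes for making and storing granule contents, Hdc, Slc18a2 and Cd63 followed the same order. Hdc, the histidine decarboxylase that makes histamine, was at 115 and 113 CPM in members and at 12 and 12.6 in Cd34 cells without Cpa3. Slc18a2, the vesicular monoamine transporter that loads histamine into granules, was at 84.6 and 99.2 against 18.0 and 25.7. Cd63, a tetraspanin of granule membranes, was at 243 and 309 against 73.4 and 80.2. For each of these genes both libraries gave the same direction, and ratios ran from 1.73 to 3.26 on the log2 scale. The wider list of secretory granule genes was mixed. Of 20 measured, 11 were higher in members in both libraries and 7 lower. Past 2-fold, 3 were higher and 0 lower, against 0.845% and 1.97% of all genes. The list medians were 0.39 in FMT_young and 0.07 in FMT_aged.

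The high-affinity IgE receptor was close to absent in Cd34 cells without Cpa3 and in mature B cells, and far more common in cells high in basophil proteases. Fcer1a, its alpha chain, had 85 and 204 UMIs in members (67.2 and 74.4 CPM) and 2 and 4 UMIs in Cd34 cells without Cpa3. The log2 ratios were 8.51 (6.61 to 11.57) in FMT_young and 8.18 (6.80 to 10.07) in FMT_aged, with wide intervals from these low counts. Ms4a2, its beta chain, was at 47.4 and 99.2 CPM. After thinning, 14.7% and 20.6% of members had a UMI of Ms4a2 or Fcer1a, against 0.345% and 0.231% of Cd34 cells without Cpa3 and 0% and 1.06% of mature B cells. Without thinning the members' shares were 19.7% and 32.7%. In cells high in Mcpt8 or Prss34, the basophil proteases, the thinned shares were 82.8% and 81.8%, and Ms4a2 was at 454 and 560 CPM.

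**Figure D1:**
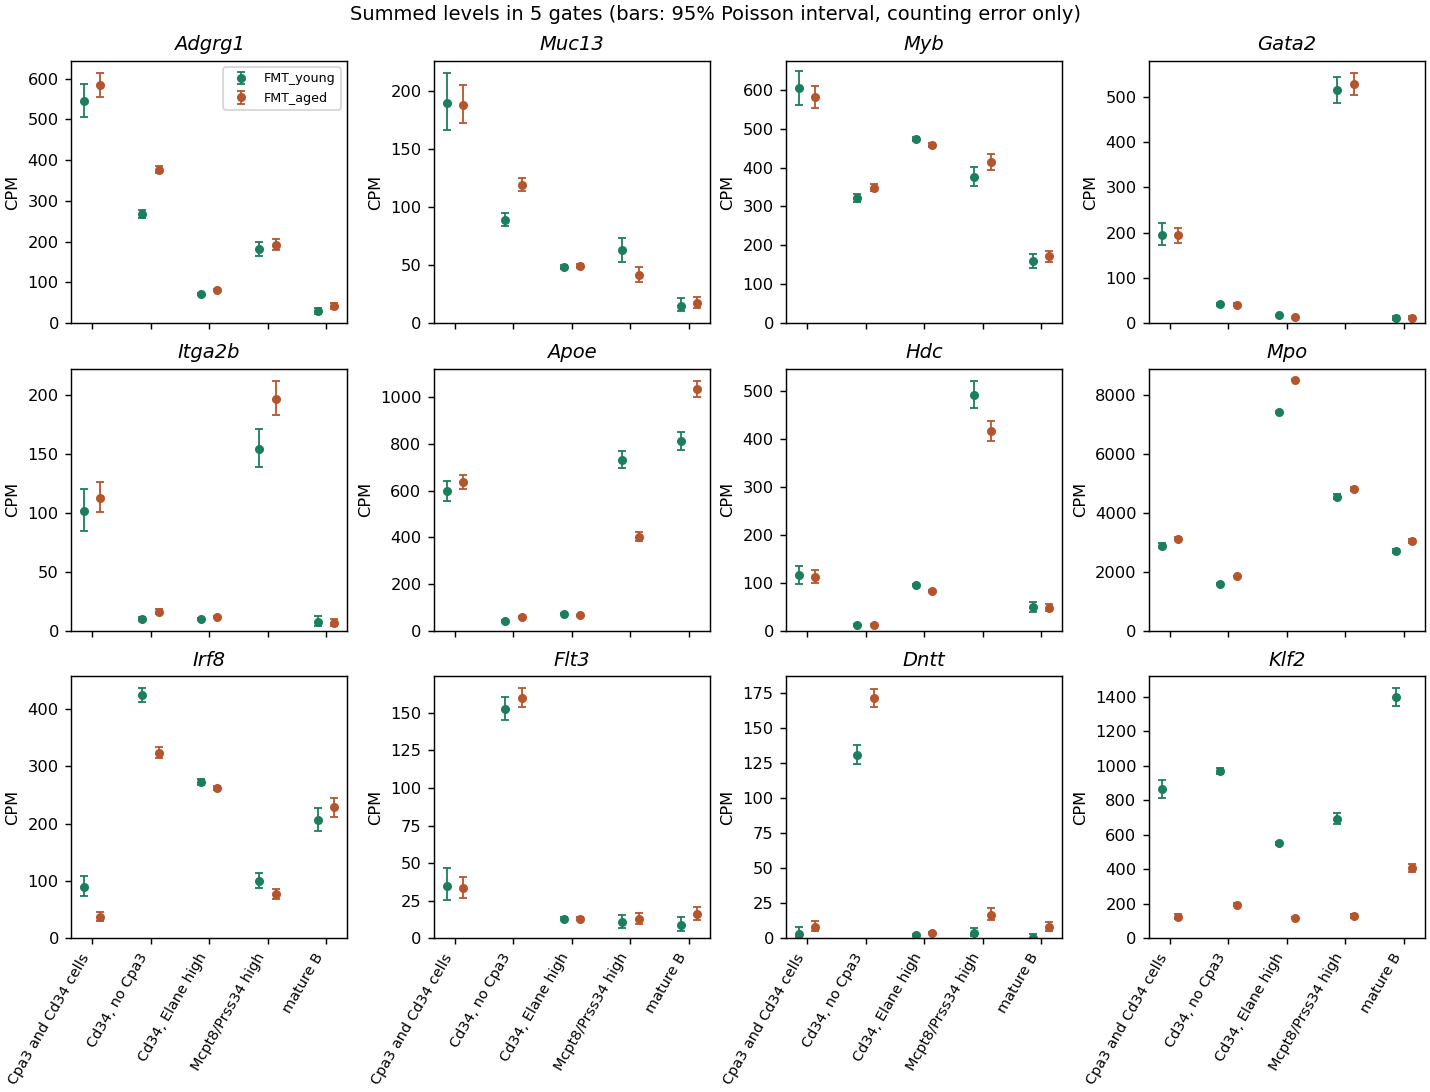
Summed level (CPM) of 12 genes in the members, in Cd34 cells without Cpa3 and in 3 other sets of called cells, with 1 point per library and 95% Poisson intervals that cover counting error only. Gata2, Itga2b and Hdc are higher in the members than in Cd34 cells without Cpa3 in both libraries, Irf8, Flt3 and Dntt are lower, and Klf2 differs between the libraries in every set.

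Sequences just before the start of 3 of these mast cell genes are shown because the members had their transcripts together with Gata2, whose protein belongs to a family known to bind GATA letters. The 250 bases before the start were taken from RefSeq (GRCm38.p6), printed 5′ to 3′ on the gene's strand, with AGATAA or its reverse complement TTATCT in capitals, searched on both strands. Cpa3 (chr3:20242182-20242431, minus strand) has AGATAA 46 bases before the start, Fcer1a (chr1:173227230-173227479, minus strand) has TTATCT 92 bases before it, and Ms4a2 (chr19:11623720-11623969, minus strand) has 3 matches, at 224, 37 and 11 bases.
Cpa3: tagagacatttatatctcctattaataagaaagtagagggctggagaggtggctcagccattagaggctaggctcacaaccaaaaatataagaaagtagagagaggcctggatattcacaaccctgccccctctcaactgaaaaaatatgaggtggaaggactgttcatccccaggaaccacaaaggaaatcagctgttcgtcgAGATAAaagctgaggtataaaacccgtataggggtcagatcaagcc
Fcer1a: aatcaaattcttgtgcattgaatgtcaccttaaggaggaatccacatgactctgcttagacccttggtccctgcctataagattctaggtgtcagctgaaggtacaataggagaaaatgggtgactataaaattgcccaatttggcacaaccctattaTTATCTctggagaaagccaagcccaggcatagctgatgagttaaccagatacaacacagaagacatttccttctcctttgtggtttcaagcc
Ms4a2: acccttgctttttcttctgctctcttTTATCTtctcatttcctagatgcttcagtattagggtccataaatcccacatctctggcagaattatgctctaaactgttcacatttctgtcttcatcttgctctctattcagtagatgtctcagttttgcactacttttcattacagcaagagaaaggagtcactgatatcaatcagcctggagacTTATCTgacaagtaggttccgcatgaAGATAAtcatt
A match is a description of letters and not a binding site. Of all genes with a promoter in the table, 3090 of 27025 (11.4%) hold a match in these 250 bases. Among the 12 genes named as higher in members, 10 are in the table and 2 (20%) hold one, Fcer1a and Slc18a2. Among the 12 named as lower, 9 are in the table and 2 (22.2%) hold one, Dntt and Myl10. Gata2, Itga2b, Hdc, Apoe, Cd63, Kit and Cd34 hold none in this window.

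By list, 25 mast cell and basophil genes were measured in this comparison. Of these, 18 were higher in members in both libraries and 5 lower, and 14 were past 2-fold higher, against the 0.845% of all genes. The list medians were 1.49 and 1.82. Beyond the genes above, Ms4a3, a tetraspan membrane protein of early granulocyte precursors, was at 185 and 254 CPM against 50.7 and 66.7. Of the 24 megakaryocyte and erythroid genes 14 were higher and 8 lower, with medians of 0.43 and 0.45. Epor, the erythropoietin receptor, was at 1.6 and 1.8 CPM in members. This is a single gene, while 6 of the 24 were past 2-fold higher in members in both libraries and 2 past 2-fold lower. Over all genes these shares were 0.845% and 1.97%. Whether members lean to the erythroid or megakaryocytic line was not tested. The eosinophil list had medians of 3.63 and 3.41 over 6 genes, but Prg2, which encodes the eosinophil major basic protein, stood at 0.52 and 0.57 once members with transcripts of another lineage were left out, from 6.58 and 5.82 with them.

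Monocyte and dendritic genes lay on the other side. Of 26 measured, 20 were lower in members in both libraries, 13 of them past 2-fold, and 1 was higher, against 1.97% of all genes past 2-fold lower. The medians were -1.28 and -1.72. Irf8 was at 90.1 and 37.2 CPM in members and at 424 and 324 in Cd34 cells without Cpa3 (-2.23 and -3.12). F13a1, the coagulation factor XIII A chain of monocytes, was at 32.4 and 17.9 CPM against 198 and 170. The MHC class II gene H2-Aa, at 20.6 and 18.2 against 110 and 92.1, and its invariant chain gene Cd74, at 88.6 and 70.0 against 265 and 207, followed the same order.

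Early lymphoid and stem cell genes were also lower. Dntt, the DNA polymerase that adds bases during antigen receptor recombination, was at 3.16 and 8.4 CPM in members and at 131 and 172 in Cd34 cells without Cpa3. Flt3, the receptor tyrosine kinase of multipotent and lymphoid-primed progenitors, was at 34.8 and 33.2 against 153 and 160. Of 25 stem and multipotent genes, 19 were lower in members in both libraries and 4 higher, with medians of -0.56 in both. Past 2-fold, 4 of the 25 were lower and 0 higher, against 1.97% and 0.845% of all genes. The share of all genes lower in both libraries without a fold limit was not counted. Hlf, a transcription factor of stem cells, was at 53.0 and 55.8 CPM against 93.2 and 96.3. It was reduced and not absent, and 25.3% and 26.3% of thinned members had an Hlf UMI, against 2.11% and 2.65% of mature B cells.

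Within the Cd34 cells these genes followed Cpa3 in steps. In FMT_aged, Gata2 was at 40.4 CPM in cells with 0 Cpa3 UMIs, 102 with 1, 152 with 2 to 3, 176 with 4 to 9 and 230 with 10 or more. In FMT_young the same steps gave 41.1, 82.4, 100, 194 and 299 CPM. Cells with a single Cpa3 UMI, outside the limits, thus already lay between the others. Irf8 ran the opposite way, from 324 to 146, 53.1, 38.3 and 26.9 CPM in FMT_aged and from 424 to 197, 79.9, 122 and 55.3 in FMT_young. Flt3 was likewise lower at each level of Cpa3 than at 0, at 44.3 CPM in FMT_young and 22.9 in FMT_aged in cells with 10 or more. Adgrg1 did not keep climbing. It was at 377, 554, 598, 608 and 562 CPM in FMT_aged. The groups of members in these steps hold 21 to 65 cells each, and deeper cells reach higher counts of any gene.

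**Figure D2:**
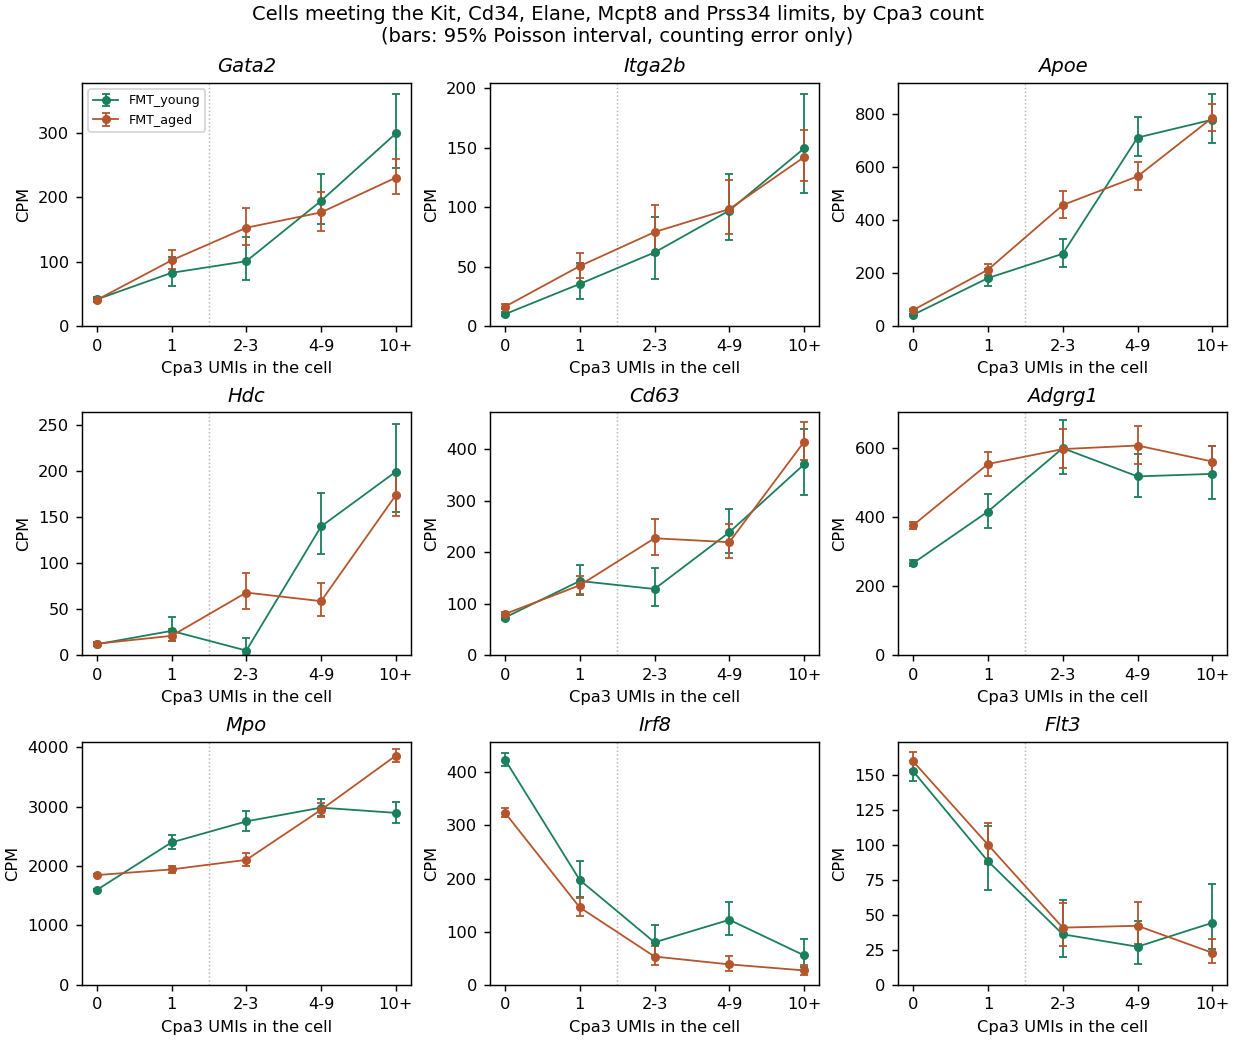
Summed level (CPM) of 9 genes in Cd34 cells grouped by their Cpa3 UMIs (0, 1, 2 to 3, 4 to 9, 10 or more), with 1 line per library. The dotted line marks the lower limit of 2 Cpa3 UMIs. Gata2, Itga2b, Apoe and Cd63 are higher in the cells with most Cpa3 than in those with none, and Irf8 and Flt3 are lower.

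The members were not uniform. Those with a UMI of Ms4a2 or Fcer1a, 15 of 76 and 53 of 162, held more Cpa3, with medians of 9 and 12 UMIs, while their depth was similar to that of the rest (medians of 13925 against 14429 UMIs in FMT_young and 14725 against 16566 in FMT_aged). In these cells Gata2 was at 491 CPM in FMT_young and 335 in FMT_aged, against 137 and 127 in the other members. Gata1, which encodes a transcription factor of mast and erythroid cells, was at 38.1 and 45.2 against 2.84 and 3.23. Il1rl1, the interleukin 33 receptor of mast cells, was at 52.5 and 41.8 against 0.948 and 3.23.

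Genes of other fates went both ways in the members with the IgE receptor. Itga2b was higher in them, at 310 and 195 CPM against 59.7 and 73.2 in the rest, and Pf4, a platelet chemokine gene, had 2 UMIs against 7 in FMT_young and 23 against 14 in FMT_aged. Klf1, an erythroid transcription factor gene, had 1 UMI in them in FMT_young and 14 in FMT_aged, with 0 in the rest. Prg2 had 669 UMIs against 4 and 877 against 7, nearly all from the single cell of each library given above. Hlf was at 14.3 and 30.5 CPM in them and at 60.7 and 67.8 in the rest. Irf8 had 0 UMIs in the 15 FMT_young cells against 114 in the rest, and was at 24.8 CPM against 43.1 in FMT_aged. Mpo was at 1650 against 3132 CPM in FMT_young and at 2656 against 3353 in FMT_aged. Summed over all members Mpo was near its level in mature B cells, as given above, and the part of free RNA in it was not measured. The members were split on transcripts counted in the same cells, so these values describe the split and are no test of it.

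Transcripts of several fates occurred in the same thinned cells. Of members with Gata2, 31 of 34 in FMT_young and 87 of 93 in FMT_aged also had Mpo, close to the share of all thinned members with it. Of members with the IgE receptor, 11 of 11 and 21 of 33 had Itga2b, and 0 of 11 and 4 of 33 had Irf8. Itga2b was rare in mature B cells, at 4.21% and 2.65% after thinning, so its joint presence with the IgE receptor lies above that background. Among all thinned members, 31 of 75 in FMT_young and 61 of 160 in FMT_aged had Itga2b.

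The next comparison was between FMT_young and FMT_aged members, and it compares 2 libraries. Of 5155 genes with at least 100 UMIs, 174 (3.38%) were past 1.5-fold higher in FMT_young and 145 (2.81%) past 1.5-fold lower, and the median log2 ratio was -0.06. Of the genes that chose the members, Cpa3 was at 469 CPM in FMT_young and 629 in FMT_aged, Cd34 at 337 and 396, and Kit at 169 and 180. Among genes the limits did not use that were higher in members than in Cd34 cells without Cpa3, Gata2 was at 195 and 194 CPM, Adgrg1 at 546 and 584, Hdc at 115 and 113 and Apoe at 597 and 636. The list with most genes past 1.5-fold higher was that of immediate early genes, which cells transcribe within minutes of a stimulus and also while tissue is being dissociated. The FMT_young members held more of them.

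Klf2, a Krüppel-like transcription factor of quiescent blood cells (chr8:72319033-72321656, plus strand, GRCm38), was at 863 CPM (812 to 915) in FMT_young members and at 125 (112 to 139) in FMT_aged members. The log2 ratio was 2.79 (2.61 to 2.97). Its UMIs were found in 69 of 76 and 87 of 162 cells, so the difference lay in most cells and not in a few. The median per cell was 5.26 Klf2 UMIs per 10000 in FMT_young, with quartiles of 1.99 and 11.2, and 0.460 in FMT_aged, with quartiles of 0 and 1.57. After thinning, 76% and 35% of members had a Klf2 UMI, against 93.7% and 71.4% of mature B cells, which express it.

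Of 27 measured immediate early genes, 26 were higher in FMT_young members and 1 lower, and 24 were past 1.5-fold higher. Over all 8661 genes with at least 30 UMIs, 5.77% were past 1.5-fold higher and 7.41% lower, and 42.9% had a ratio above 0. The list median was 1.18 (0.96 to 1.41, an order-statistic interval over the list's genes), and the summed level was 13816 CPM against 6394. Per cell the median was 122 UMIs of the list per 10000 against 51.9, and the ranges overlapped, from 2.34 to 425 and from 2.04 to 338.

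Among the list's members, the nuclear receptor gene Nr4a1 was at 49.8 CPM in FMT_young and 4.37 in FMT_aged, a log2 ratio of 3.51 (2.60 to 4.54). Atf3, a stress-induced factor, was at 123 and 19.3 CPM, and Egr1, a zinc finger factor induced by growth signals, at 882 and 283. The AP-1 genes differed less, with Jun at 2189 and 1116 CPM, Fosb at 1528 and 728, Fos at 1452 and 856 and Junb at 477 and 288. Ier3, at 170 and 173 CPM, was the gene that was not higher.

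The same list was higher in FMT_young in every other set of cells measured. Its median was 0.90 in Cd34 cells without Cpa3 (30 of 30 genes higher), 1.05 in Elane-high Cd34 cells (those at or above the Elane limit), 1.31 in cells high in Mcpt8 or Prss34, and 0.88 in mature B cells (27 of 29). In barcodes with under 100 UMIs it was 0.73, with 29 of 30 genes higher. Klf2 followed, with log2 ratios of 2.31 in Cd34 cells without Cpa3, 1.78 in mature B cells and 1.58 in free RNA. The difference is thus shared by progenitors, lymphocytes and free RNA of these libraries and is not particular to the members, and the part of sample handling in it was not tested.

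**Figure D3:**
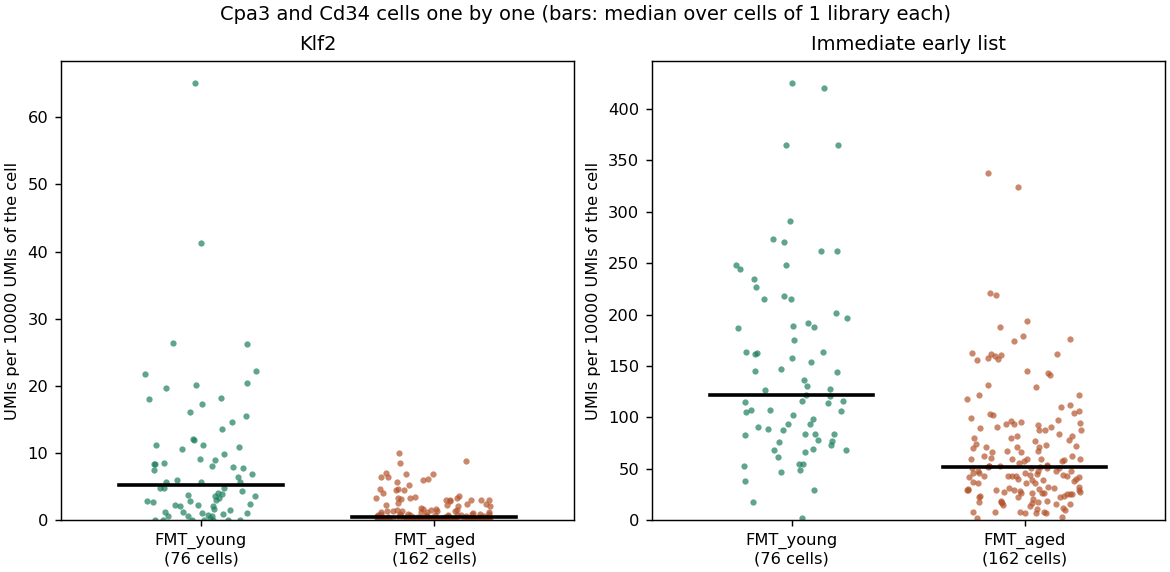
Klf2 and the summed immediate early list in each member, as UMIs per 10000 UMIs of the cell, with 1 point per cell and bars at the medians. The median of Klf2 is 5.26 in FMT_young and 0.460 in FMT_aged, that of the list 122 and 51.9, and the cells of the libraries overlap.

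Monocyte and dendritic genes, lower in summed members than in Cd34 cells without Cpa3, were higher in FMT_young than in FMT_aged members. Of 22 measured, 20 were higher in FMT_young members and 2 lower, 14 were past 1.5-fold higher and 1 lower, and the median was 0.73 (0.17 to 1.05). Irf8 was at 90.1 CPM (74.4 to 108) against 37.2 (30.3 to 45.1), a ratio of 1.28 (0.88 to 1.68). In FMT_young 2 members, at 9.07 and 16.1 UMIs per 10000, held 43 of the 114 Irf8 UMIs, and in FMT_aged 1 member held 10 of 102. Without these 3 cells, which had more Irf8 than the summed Cd34 cells without Cpa3, the levels were 57.9 and 33.9 CPM, the ratio 0.77 (0.31 to 1.24) and the list median 0.63. Irf8 UMIs were in 24% and 12.5% of thinned members, against 32.6% and 41.3% of mature B cells, which express it. Without the members of highest doublet score the list median was 1.09. In the other sets of cells it was 0.24 in Cd34 cells without Cpa3, 0.11 in Elane-high Cd34 cells, 0.33 in cells high in Mcpt8 or Prss34 and 0.04 in mature B cells. Whether the members differ from these cells was not tested, and with the limits applied to thinned cells the median was -0.21.

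Neutrophil genes led the list of genes higher in FMT_young members through few cells. S100a9 was at 3332 CPM against 55.8, and S100a8, Retnlg, Ngp, Camp, Ltf, Lcn2 and Chil3 were also among the 12 genes named as higher. The log2 ratio of S100a9 was 5.90, and 0.48 without the members of highest doublet score. Among the 12 named as lower, Ccl5, a T cell chemokine, with 1 UMI against 258 (-6.89, -12.2 to -4.40), and the immunoglobulin genes Ighm and Igkc likewise came mostly from members with transcripts of another lineage. Without these members, left out in part for their immunoglobulin transcripts, Ighm stood at 1.03 and Igkc at 0.89, in the opposite direction. Free RNA lay that way too, with Ighm at 30809 CPM in FMT_young and 14109 in FMT_aged. Igkc was at 53117 and 28080 CPM in free RNA. How much of the level left in the members is background was not measured.

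Once the members of highest doublet score were left out, 134 of 4715 genes were past 1.5-fold higher and 163 lower. Klf2, at 2.74, remained, and Ccl3, a macrophage inflammatory chemokine gene, was at 86.6 CPM against 11.2 (2.95). Its relative Ccl4 stood at 2.67, Gadd45b, a stress-response gene, at 1.99, and Klf6 at 1.48. Ccl3 UMIs were found in 19 of 69 and 11 of 148 of these members. In the other sets, with doublets kept, Ccl3 was at 0.88 in Cd34 cells without Cpa3 and 0.85 in free RNA. It was at -0.75 in cells high in Mcpt8 or Prss34. Gadd45b and Klf6 were higher in FMT_young in every other set, at 1.49 and 1.28 in Cd34 cells without Cpa3 and 1.44 and 0.90 in free RNA. Ly6c2 and Slpi were also named but came mostly from 1 cell each, with 138 of 187 and 71 of 101 UMIs.

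Lars2, Gars and Ms4a2 were also among the genes named as lower in FMT_young members. Lars2, the mitochondrial leucyl-tRNA synthetase (chr9:123366927-123462666, plus strand), was at 139 CPM against 291, a ratio of -1.06 (-1.31 to -0.83). It was lower in every other set too, at -1.19 in Cd34 cells without Cpa3, -1.31 in mature B cells and -1.17 in free RNA. Gars, the glycyl-tRNA synthetase, had a ratio of -1.07, with 38 and 173 UMIs. Its ratio was negative but nearer even in the other sets. It was -0.11 (-0.26 to 0.05) in Cd34 cells without Cpa3 and -0.17 in Elane-high Cd34 cells. In cells high in Mcpt8 or Prss34 it was -0.38, in mature B cells -0.50 and in free RNA -0.41. Ms4a2 was at 47.4 against 99.2, a ratio of -1.06 (-1.49 to -0.66), and its UMIs were found in 12 of 76 and 35 of 162 members. Its ratio was -0.30 in cells high in Mcpt8 or Prss34, -0.73 in free RNA and 0.12 (-0.19 to 0.44) in Elane-high Cd34 cells. With the limits applied to thinned cells it was 0.24 (-1.02 to 1.36) in members. Nfkbia, the inhibitor of NF-kB, was at 94.9 against 157, in the opposite direction to most immediate early genes.

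Mast cell and basophil genes went both ways. Of 22 measured, Ms4a2 included, 8 were higher in FMT_young members and 14 lower, 2 and 4 past 1.5-fold, with a median of -0.18 against -0.06 for all genes tested. Ms4a3 was at 185 CPM against 254 and Lmo4, a transcriptional adaptor, at 318 against 420. Hgf, the hepatocyte growth factor gene, was at 85.4 against 39.4, in the opposite direction. Alox5, the 5-lipoxygenase of leukotriene synthesis, was at 11.1 against 27.3. The megakaryocyte and erythroid list had 4 of 20 genes higher and 16 lower (median -0.20), but Plek, a platelet cytoskeletal protein gene, was at 163 against 75.5. Over all genes with at least 30 UMIs, 42.9% were higher. This list was lower in Cd34 cells without Cpa3 too, in 19 of 22 genes (median -0.24). Its median was -0.19 in mature B cells and -0.24 in free RNA, so the shift is not particular to the members. Stem and multipotent genes gave 5 higher and 12 lower of 17 (median -0.11), with Sox4 at 629 against 415 and Myl10 at 11.1 against 35.7.

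Of 30 measured transcription factors of myeloid choice, 18 were higher in FMT_young members and 12 lower (median 0.05). Zeb2, a repressor that helps shape monocyte and dendritic fates, was at 372 CPM against 233. Of 25 cytokine receptor genes 14 were higher and 11 lower (median 0.07), and Csf3r, the receptor for granulocyte colony-stimulating factor, was at 75.1 against 41.2. Genes known to be raised in old stem cells were higher in 13 of 15 and lower in 2, with a median of 0.37. In mature B cells 16 of 17 were higher (median 0.56), and in free RNA 17 of 26 (0.25). The medians were 0.37 in cells high in Mcpt8 or Prss34, 0.22 in Elane-high Cd34 cells and 0.07 in Cd34 cells without Cpa3. The difference is thus not particular to the members. This list shares Egr1, Klf6, Fos, Jun and Zfp36 with the immediate early list.

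The study's subject of inflammatory signals was read from 3 further lists. Type I interferon response genes were split, with 13 of 24 higher in FMT_young members, 11 lower and a median of 0.10. Interferon gamma response genes gave 9 higher and 18 lower of 27, with a median of -0.10. TNF and NF-kB genes gave 10 and 10 of 20, with a median of 0.04. Within the last list the inflammasome gene Nlrp3 was at 30.8 CPM against 2.92 and the chemokine gene Ccl4 at 149 against 29.5, while Nfkbia lay the other way. So these lists did not move as a block, and single genes differed by several-fold. Nlrp3 and Ccl4 were also higher in FMT_young in Cd34 cells without Cpa3, at log2 ratios of 1.70 and 1.95. They were at 1.34 and 2.72 in mature B cells and at 1.96 and 1.09 in free RNA. In cells high in Mcpt8 or Prss34, Nlrp3 was at 2.40 and Ccl4 at 0.17 (-0.002 to 0.34). The higher levels of these genes are thus not particular to the members.

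Heat shock genes were higher in FMT_young members for 18 of 27, with a median of 0.14, and 6 were past 1.5-fold higher, against 5.77% of all genes. The median of this list was positive in every other set too, from 0.03 in mature B cells to 0.16 in Cd34 cells without Cpa3. Dnajb1, a co-chaperone of HSP70, was at 440 CPM in FMT_young members and 187 in FMT_aged members. Of S phase genes, 13 of 43 were higher and 30 lower (median -0.14), with the replicative helicase subunit gene Mcm2 at 87.8 against 134 and Pcna, the sliding clamp of DNA polymerases, at 196 against 261. G2 and M phase genes gave 29 and 22 of 51 (median 0.05). Ribosomal protein genes held 31.0% and 31.3% of the members' UMIs, and mitochondrially encoded genes 3.1% and 3.09%.

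**Figure D4:**
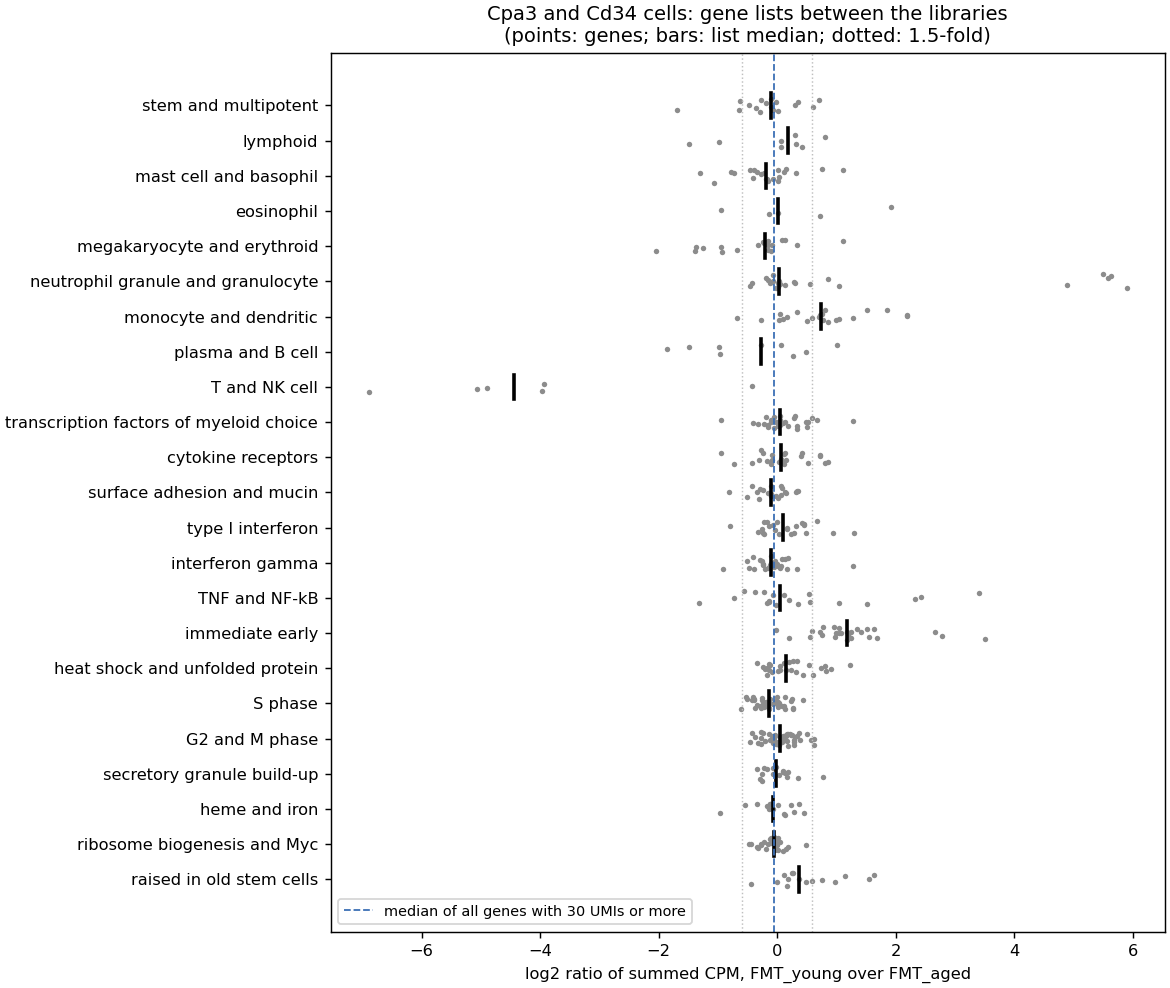
Log2 ratio of FMT_young over FMT_aged members for each gene of the lists, with 1 point per gene and a bar at the list median. The dashed line is the median of all genes and the dotted lines mark 1.5-fold. Immediate early genes have a median of 1.18 and monocyte and dendritic genes of 0.73, and the mast cell and basophil list lies at -0.18.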

How the data were processed

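The deposited matrices hold counts, raw UMI counts per gene and barcode, made with Cell Ranger and mm10 per the submitters' processing notes with software version 3.1.0 per the file headers. The other deposited files (unit other) list gene and barcode names without values. Raw matrices include barcodes without a cell, so a cell needed 1000 UMIs, 500 genes and no more than 10% mitochondrial UMIs. Only 1 library per group exists, so no test, standard error or p-value was computed. Counts of the members of a library were summed and scaled to CPM. Ratios have exact conditional binomial intervals (95%), and a prior of 0.5 entered only where a count was 0. Genes needed 100 UMIs over both groups, and list genes 30.

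Doublet scores followed a reimplementation of the Scrublet score (30 components, 2 artificial doublets for each cell), and 0.8% per 1000 called cells, those scoring highest, were marked, 1139 and 1031 cells. For shares, cells were thinned to 5000 UMIs. Mature B cells had at least 2 UMIs of Ms4a1 and of Cd79a and under 5 per 10000 of Jchain. Named genes were the 12 each way whose near interval bound lay farthest from 0 among those with at least 50 CPM in either group, and 2 in each direction per list. The members and the lists were chosen with earlier results of these data known. Removing members with transcripts of another lineage or with most Irf8, and measuring the lists in other cells, were chosen after seeing the data. Positions are from GENCODE vM21, where 125 of 125 named gene IDs were found. Python 3.11.15, numpy 2.4.6, scipy 1.17.1, pandas 2.3.3 and edgeR 4.0.16 (TMM factors only) were used, and the calculations were tested on simulated data. Alternatives were other limits, thinned cells, doublet removal, other scalings, means over cells and other count minimums.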

Additional observations from a re-analysis of the deposited data

Results flagged for a closer look

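For 4 lists, the median log2 ratio of members over Cd34 cells without Cpa3 had opposite signs in the libraries, and the differences between the libraries were not tested. Granulocyte genes were at 0.76 in FMT_young and -0.050 in FMT_aged, beside the 5 FMT_young members rich in S100a8 and S100a9. T and NK cell genes were at -1.15 and 0.75, beside the 9 FMT_aged members with T cell transcripts. Macrophage and stromal genes were at 0.21 and -1.40. S phase genes were at -0.052 and 0.053, both near 0.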

How the results depend on the processing

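The values describe 1 library per group, and intervals cover counting error only. No paired analysis was possible because each group has 1 library. Applying the limits to cells thinned to 5000 UMIs left 11 and 42 members, 288 genes to compare. Over all settings, 401 of the values answering a comparison kept their value within its error, 34 moved and 4 reversed, and 1546 values of single genes or cells stayed, 216 moved and 44 reversed. The cause of a change was not tested, except that lower count minimums test more genes.

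With the thinned limits the shares were 0.127% in FMT_young and 0.512% in FMT_aged (log2 ratio -2.01), 22 genes were past 1.5-fold higher and 17 lower, and 44 were past 2-fold higher and 119 lower in members. Medians were then 0.25 for stem, 0.24 for mast cell and basophil, -0.21 for monocyte and dendritic, 0.65 for plasma and B cell, -0.12 for transcription factor, 0.11 for surface, 1.65 for immediate early, 0.20 for S phase, 0.16 for secretory, 0.11 for ribosome biogenesis and 1.87 for old stem cell genes. Single genes that reversed there were Angpt1 (0.25), Camp (-1.77), Ccl5 (0.35), Cd79a (1.93), Ckap5 (-1.24), Hsp90b1 (0.30), Ighm (1.93), Igkc (0.65), Il6ra (-0.39), Lcn2 (-0.39), Ly6c2 (-0.39), Meis1 (-0.13), Ms4a2 (0.24), Ms4a3 (0.24), Mzb1 (3.52), Ndufs4 (0.085), Nfkbia (0.18), Prg2 (-8.06), Prg3 (-2.15), S100a6 (-2.15), Slpi (-0.87) and Vamp8 (0.13).

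A Cpa3 limit of 1 gave shares of 0.997% and 2.38%, a G2 and M phase median of -0.062 and Igkc at 0.017. A limit of 4 gave 0.453% and 1.02%, Ighm at 0.18 and Igkc at 0.26. An Elane limit of 5 gave 1.09% in FMT_aged and a stem median of -0.37, and a Cd34 limit of 1 a cytokine receptor median of 0.16. Without the highest doublet scores the monocyte and dendritic median was 1.09 and the plasma and B cell median 0.97, and Cd79a (0.40), Ifi27l2a (-1.39), Ighm (1.22), Igkc (1.14), Lcn2 (-0.086), Ltf (-0.034), Mzb1 (0.55) and Wfdc21 (-1.67) reversed. Without members carrying another lineage's transcripts that B cell median was 0.67, and Cd79a (0.40), Ighm (1.03), Igkc (0.89), Lcn2 (-0.27), Ltf (-0.037), Mzb1 (0.55) and Wfdc21 (-0.45) reversed. Igha, lower in members than in Cd34 cells without Cpa3, then stood at 0.68 and 0.052 (0.031 in FMT_aged without the highest doublet scores).

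With at least 30 UMIs 500 genes were past 1.5-fold higher and 642 lower, and with at least 1 UMI 2234 and 2076. The ribosome biogenesis median was -0.0092 with TMM scaling, -0.014 with median of ratios scaling and 0.017 as a mean over cells, which also gave G2 and M phase genes -0.040 and Prg2 -0.051. With at least 5 UMIs of the eosinophil list, 0.625% of FMT_aged members passed. Depth limits genes near 30 UMIs most.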

Other observations

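Type I interferon response genes gave different medians for FMT_young over FMT_aged in members and in the cells around them. In Cd34 cells without Cpa3 the median was -0.38, with 3 of 38 genes higher and 35 lower, while in members it was 0.10, with 13 of 24 higher. It was -0.06 in Elane-high Cd34 cells, -0.14 in cells high in Mcpt8 or Prss34 and -0.04 in mature B cells. The members' median was below 0 with a Cpa3 limit of 1 (-0.051) and, closer to 0, with genes of at least 1 UMI, so its sign depends on the setting. The members held fewer UMIs of these genes than the other sets, and the difference between members and Cd34 cells without Cpa3 was not tested.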
